A study of Mus musculus with 9 samples.

Results

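The macrophage and complement C1q genes followed here are Csf1r, Lyz2, Adgre1, Cd68, Apoe, C1qa, C1qb, C1qc and Gpnmb, and they were read in mouse dendritic cells. All probe sets whose platform annotation names 1 of these 9 genes alone were taken, which gave 14 of the 12488 probe sets of the array design used for experiments 2 and 3 and 11 of the 12654 probe sets of the design used for experiment 1. They cover 8 of the 9 genes, out of 8387 genes with a probe set of their own in either design, since no probe set of either design was annotated to Gpnmb alone. A probe set annotated to both Lyz1 and Lyz2 was left out. RNA of dendritic cells at day 10 had been hybridised to 9 Affymetrix arrays, 3 each for cells labelled CIITA-/-, cells labelled IAb-/- and wild-type B6 cells. CIITA switches on transcription of MHC class II, and IAb is a class II molecule whose beta chain is encoded by H2-Ab1. The titles number the arrays of each group as experiments 1, 2 and 3; 1 CIITA-/- array carries no number and was taken as experiment 2, the only number left in its group. The labels give no age, sex or culture condition, and nothing in them states that the 3 arrays of a group stand for 3 mice or 3 cultures. The p-values may therefore reflect technical spread alone.

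Macrophages and dendritic cells both descend from bone marrow myeloid precursors. Csf1r is the receptor for the macrophage growth factor Csf1, Adgre1 encodes the surface receptor F4/80, Cd68 a glycoprotein of lysosomes and endosomes, and Lyz2 the secreted enzyme lysozyme M. Apoe is a lipid carrier that macrophages secrete. C1qa, C1qb and C1qc encode the chains of C1q, which binds immune complexes and dying cells and starts the classical complement pathway. Tissue macrophages are a main source of C1q. The C1q genes lie next to each other in the RefSeq annotation, in the order C1qb, C1qc and C1qa, between Ephb2 and Epha8.

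The 250 bases before the transcription start are shown for Lyz2 and Cd68, which had a probe set well above background on all 9 arrays, and for the neighbouring genes C1qb and C1qc, which had none. They come from RefSeq (GRCm38.p6) and are written 5' to 3' on the gene's strand, which is the minus strand for all 4. They span chr10:117282273-117282522 for Lyz2, chr11:69666171-69666420 for Cd68, chr4:136886201-136886450 for C1qb and chr4:136892915-136893164 for C1qc. Capitals mark GAGGAA, the core of the box bound by the myeloid factor PU.1 (Spi1), or its reverse complement TTCCTC.
Lyz2: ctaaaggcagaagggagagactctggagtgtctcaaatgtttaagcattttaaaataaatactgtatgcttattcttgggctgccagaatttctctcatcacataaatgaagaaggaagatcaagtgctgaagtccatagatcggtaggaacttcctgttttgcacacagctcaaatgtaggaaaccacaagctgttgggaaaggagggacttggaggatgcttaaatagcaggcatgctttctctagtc
Cd68: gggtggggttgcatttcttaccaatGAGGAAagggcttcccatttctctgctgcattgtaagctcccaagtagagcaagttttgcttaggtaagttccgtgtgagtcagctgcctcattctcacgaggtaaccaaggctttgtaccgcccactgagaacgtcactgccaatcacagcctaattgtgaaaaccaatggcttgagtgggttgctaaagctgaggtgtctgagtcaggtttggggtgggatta
C1qb: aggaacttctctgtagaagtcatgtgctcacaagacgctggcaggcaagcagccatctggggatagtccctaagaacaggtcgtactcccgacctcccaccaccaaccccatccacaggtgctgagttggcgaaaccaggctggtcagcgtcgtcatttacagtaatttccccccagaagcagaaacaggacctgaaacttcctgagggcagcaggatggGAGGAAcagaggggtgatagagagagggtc
C1qc: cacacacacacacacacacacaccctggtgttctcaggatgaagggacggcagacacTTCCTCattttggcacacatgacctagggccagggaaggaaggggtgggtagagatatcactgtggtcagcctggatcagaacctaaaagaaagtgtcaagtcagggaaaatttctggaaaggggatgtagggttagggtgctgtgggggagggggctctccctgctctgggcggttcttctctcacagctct
On either strand these letters occur in 23.3% of all 32851 windows of this length. Lyz2 has no copy, and Cd68, C1qb and C1qc have 1 each, beginning 225, 30 and 193 bases before the start. A match is a description of letters and not of a bound site. Spi1 itself read 8617 and 7629 on the CIITA-/- arrays of experiments 2 and 3, against 8901 and 8846 on B6 arrays.

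The deposited levels are linear intensities in arbitrary units that can fall below 0. A noise limit was set at the size that 95% of the negative values did not exceed, which is 1701 for the 6 arrays of experiments 2 and 3 and 2203 for the 3 arrays of experiment 1. Of probe sets other than controls, 60.1% lay below this limit on all 6 arrays and 66.6% on all 3. The 2% trimmed mean lay between 2502.21 and 2502.58 on the 6 arrays and at 2500 on the 3 arrays, so each table shares 1 scale, but the tables were scaled separately. The gene named by the CIITA-/- label could not be used as a check, since Ciita stayed under the noise limit on all 9 arrays, and H2-Ab1 read 30749, 16070 and 9621 on the IAb-/- arrays of experiments 1, 2 and 3, against 44048, 17261 and 21348 on B6 arrays. The files do not say whether these probes lie in a deleted part. H2-Aa, a class II gene that CIITA switches on, read -1893, -1520 and -2254 on CIITA-/- arrays, against 33825, 51407 and 53578 on B6 arrays. Directions rest on the labels. Dendritic cell markers were present as labelled: 15 of 17 measured were above the limit on all 6 arrays and 13 of 17 on the 3 arrays of experiment 1, among them Itgax, Ccr7, Cd83 and Irf4. No T cell (7 measured), NK cell (4) or mast cell marker (6) was above the limit on any array.

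Of the 8 measured genes, 4 had a probe set above the noise limit on any array, namely Lyz2, Cd68, Csf1r and Adgre1. The other 4, Apoe, C1qa, C1qb and C1qc, were below it on all arrays that carry them. In bulk samples, fewer cells of a type and less RNA per cell cannot be told apart. By probe set, 3 of the 14 were above the limit on all 6 arrays of experiments 2 and 3 and 11 were above it on none. In experiment 1, 3 of 11 were above it on all arrays and 7 on none.

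Lyz2 had higher values in both knockout groups in experiments 2 and 3 without passing the test. Its bright probe set read 17725 and 22732 on CIITA-/- arrays of experiments 2 and 3 and 27047 and 18616 on IAb-/- arrays, against 15191 and 14154 on B6 arrays. Neither knockout group overlapped with B6 in these experiments. In experiment 1 the same probe set read 47497 on the CIITA-/- array and 43512 on the IAb-/- array, against 44081 on the B6 array, so the gap was small there. The second Lyz2 probe set lay between -189 and 107 on 6 arrays and was at background throughout.

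**Figure D1:**
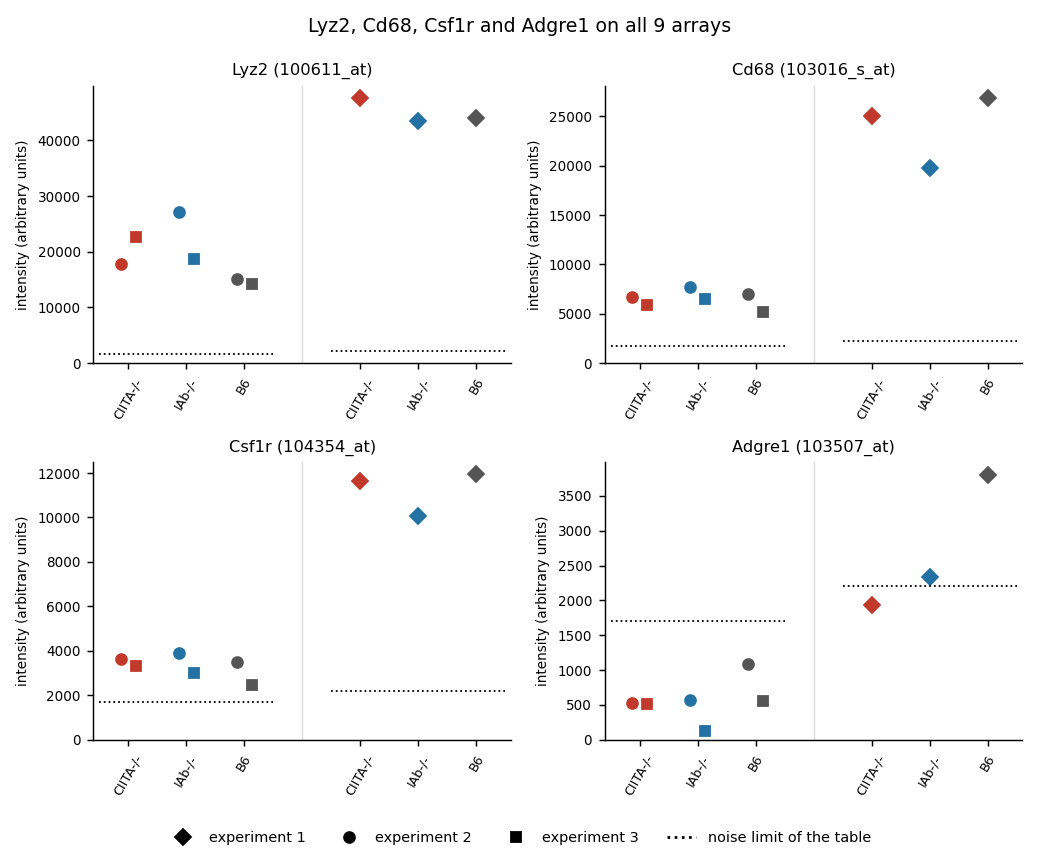
Deposited intensity (arbitrary units) of 4 macrophage gene probe sets on each array, by group; circles, squares and diamonds are experiments 2, 3 and 1, and dotted lines the noise limits of 1701 (6 arrays) and 2203 (3 arrays), which belong to separately scaled tables. Lyz2 lies above B6 in both knockout groups of experiments 2 and 3, Cd68 and Csf1r overlap between groups, and Adgre1 exceeds the limit only in experiment 1, on the IAb-/- and B6 arrays.

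For CIITA-/- against B6 the Lyz2 level was 20228 ± 3541 against 14672 ± 733 (mean ± SD, n = 2 each), a log2 difference of 0.45 (SE 0.25, 95% interval -0.20 to 1.11; limma, adjusted p = 0.931). Within experiments 1, 2 and 3 the log2 differences were 0.11, 0.22 and 0.68, all higher in CIITA-/-. Such a lack of overlap in the higher direction was shared by 23.3% of the 3808 probe sets above the limit on these 4 arrays. A higher value in all 3 experiments was shared by 16.7% of 3576, counted among probe sets above the limit on any array of these groups in each design. For IAb-/- against B6 the level was 22832 ± 5962 against 14672 ± 733, a log2 difference of 0.61 (SE 0.25, 95% interval -0.04 to 1.27; limma, adjusted p = 1). Here 16.9% of 3803 probe sets did not overlap in the higher direction, and the within-experiment log2 differences were -0.02, 0.83 and 0.40. The largest of these is from experiment 2, whose IAb-/- array also had the brightest Cre spike-in controls, at a mean of 60407, while the IAb-/- array of experiment 3 read 34615 and the other 4 arrays 41952 to 47430; the part of this in the Lyz2 value was not tested. Between the knockout groups Lyz2 differed by a log2 of -0.16 in CIITA-/- relative to IAb-/- (95% interval -0.82 to 0.49), with the groups overlapping, as a higher or a lower value on both arrays was seen for 11.7% and 11.9% of 3776 probe sets. Of the 3 member probe sets above the limit on all 9 arrays, 0 were higher in CIITA-/- than in IAb-/- in all 3 experiments. The share was 11.9% among the 3612 probe sets above the limit on any array of these groups in each design. The Lyz2 difference turned to 0.11 without the IAb-/- array of experiment 2 and to 0.02 without the CIITA-/- array of experiment 2.

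Cd68 was well above background everywhere, with no steady order of the groups. Its bright probe set read 6749 and 5878 on CIITA-/- arrays of experiments 2 and 3 and 7740 and 6525 on IAb-/- arrays, against 7040 and 5197 on B6 arrays. The 3 groups overlapped. In experiment 1 it read 25057 on the CIITA-/- array and 19781 on the IAb-/- array, against 26847 on the B6 array, with the IAb-/- array lowest. For CIITA-/- against B6 the log2 difference was 0.06 (SE 0.22, 95% interval -0.51 to 0.63; limma, adjusted p = 0.985), and it turned to -0.16 without the B6 array of experiment 3 and to -0.04 without the CIITA-/- array of experiment 2. For IAb-/- against B6 it was 0.23 (95% interval -0.34 to 0.80; limma, adjusted p = 1), and the difference within experiment 1 was -0.44, the other way. The other Cd68 probe set of each design, drawn from 1 shared expressed sequence tag, was below 0 on every array, at -567 to -291 on the 6 arrays and -315 to -196 on the 3.

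Csf1r, the growth factor receptor, was above the limit on all 9 arrays without a group standing apart. Its bright probe set read 3645 and 3304 on CIITA-/- arrays of experiments 2 and 3 and 3904 and 3001 on IAb-/- arrays, against 3495 and 2455 on B6 arrays. All 6 values exceeded the limit of 1701, the groups overlapped, and the B6 array of experiment 3 was lowest. In experiment 1 it read 11619 on the CIITA-/- array and 10088 on the IAb-/- array, against 11967 on the B6 array. The log2 difference was 0.24 for CIITA-/- against B6 (95% interval -0.41 to 0.89; limma, adjusted p = 0.933) and 0.22 for IAb-/- against B6 (95% interval -0.43 to 0.87; limma, adjusted p = 1). Without the B6 array of experiment 3 these turned to -0.01 and -0.03, and within experiment 1 they were -0.04 and -0.25. The other Csf1r probe set of each design stayed below the limit on all arrays, with values from -299 to 344 on the 6 arrays and from -646 to 379 on the 3. In CIITA-/- relative to IAb-/- the log2 difference was 0.02 for Csf1r (95% interval -0.63 to 0.67) and -0.17 for Cd68 (95% interval -0.75 to 0.40).

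**Figure D2:**
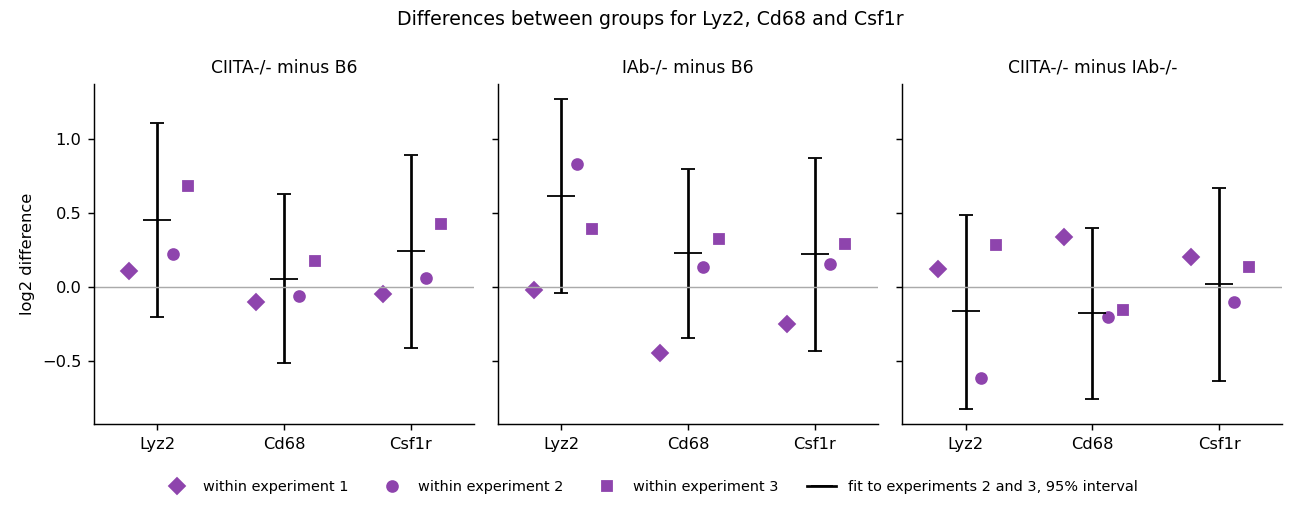
Log2 differences for Lyz2, Cd68 and Csf1r in each comparison; symbols are differences within experiments 1, 2 and 3, and bars the estimate and 95% interval of the fit to experiments 2 and 3 (2 arrays per group). Every interval includes 0, and Lyz2 in CIITA-/- minus B6 is the only case here with all 3 symbols above 0.

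Adgre1, which encodes F4/80, was read by a probe set that passed the limit only in experiment 1. There it gave 1937 on the CIITA-/- array, just below the limit of 2203, and 2330.5 on the IAb-/- array, against 3798 on the B6 array. In experiments 2 and 3 all values lay below the limit of 1701, at 529 and 516 on CIITA-/- arrays and 571 and 131 on IAb-/- arrays, against 1093 and 560 on B6 arrays. The B6 array was the highest of its experiment in each of the 3, by values that are within noise in 2 of them. A value lower than B6 in all 3 experiments was seen for 14% of 3576 probe sets in CIITA-/- and 13.7% of 3590 in IAb-/-. These counts take probe sets above the limit on any array of the groups compared in each design, so this Adgre1 probe set is not among them. The fit gave adjusted p = 0.935 for CIITA-/- against B6 and 1 for IAb-/- against B6 (limma). The second Adgre1 probe set, on 6 arrays, had the opposite order at lower values, with 241 and 123 on CIITA-/- arrays and 129 and 133 on IAb-/- arrays, against 57 and 80.3 on B6 arrays.

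The C1q genes were not detectable above the noise limit in any group. In experiment 3 the CIITA-/- and IAb-/- arrays gave 610 and 414 for C1qa, against 129 on the B6 array. C1qb, by the probe set on both designs, gave 684 and 583 on these arrays, against 294 on the B6 array. C1qc gave 1366 and 676, against -470. So by these probe sets the order for all 3 chains in that experiment was CIITA-/-, IAb-/-, B6, at levels below the limit of 1701.

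That order did not hold for all 3 chains together in the other experiments, although C1qb kept it in experiment 1 and C1qc in experiment 2. In experiment 2 the CIITA-/- and IAb-/- arrays gave -89 and -344 for C1qa, against -43 on the B6 array, 231 and -318 for C1qb, against 64, and -195 and -622 for C1qc, against -625. For experiment 1 the values were -41 and -85 for C1qa, against 145 on the B6 array, 1091 and 400 for C1qb, against -120, and 1733 and 255 for C1qc, against 752. C1qa thus had its highest value on the B6 array in experiments 1 and 2, while C1qb and C1qc had theirs on the CIITA-/- array in all 3 experiments. All these values are within noise, and those of C1qc in experiment 2 were all below 0. Among probe sets above the limit in each design, 16.7% of 3576 were higher in CIITA-/- than in B6 in all 3 experiments. For CIITA-/- against IAb-/- it was 11.9% of 3612. The C1q probe sets are not among those counted. The other C1qb probe sets gave another picture in part. The one on the 6 arrays read 864 and 808 on CIITA-/- arrays and 853 and 773 on IAb-/- arrays, against 889 and 979 on B6 arrays, with B6 highest. The one on the design of experiment 1 gave 330 and 284, against -60. The lowest adjusted p among the C1q probe sets was 0.931 (limma).

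Apoe, an abundant macrophage transcript, gave no signal either. The probe set on both designs was negative on all 9 arrays, at -1469 and -1911 on CIITA-/- arrays of experiments 2 and 3 and -1565 and -2925 on IAb-/- arrays, against -1466 and -1456 on B6 arrays. In experiment 1 it lay between -3247 and -2306. Of all probe sets other than controls, 12.5% were below 0 on all 6 arrays of experiments 2 and 3 and 15.9% on all 3 arrays of experiment 1. The second Apoe probe set, on 6 arrays, read between -9 and 208. A negative intensity shows only that nothing was measured over background by these probes.

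**Figure D3:**
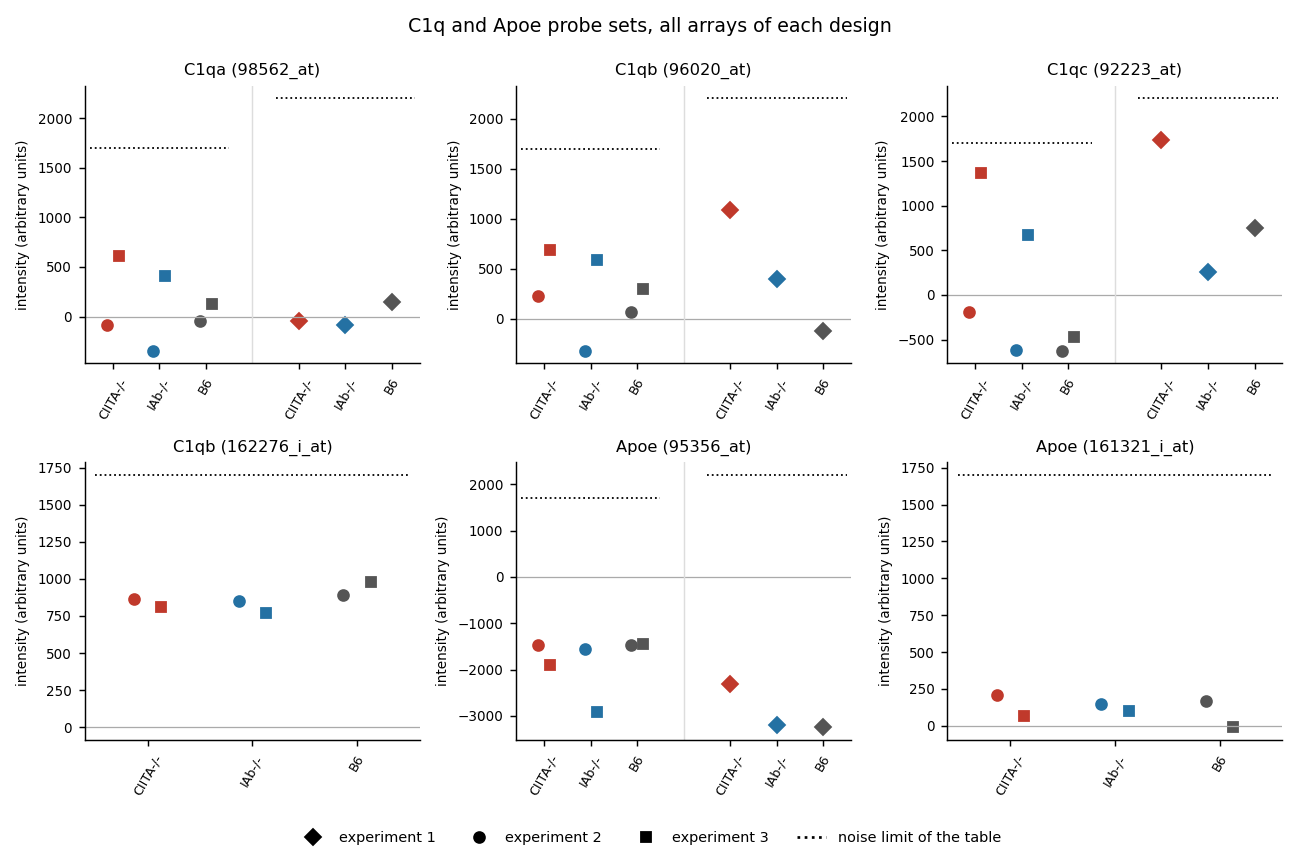
Deposited intensity (arbitrary units) of C1q and Apoe probe sets by group; circles, squares and diamonds are experiments 2, 3 and 1, dotted lines the noise limits (1701 and 2203), and the grey line is 0. All points lie below the limits, and the Apoe probe set on both designs is negative on every array. By the probe sets on both designs, the 3 C1q chains order CIITA-/-, IAb-/-, B6 together in experiment 3 alone. The other C1qb probe set shown has B6 highest.

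Of the 14 member probe sets on the 6 arrays, 11 were tested and 3 were left out, being under the low-value floor on all 6 arrays (the second ones of Lyz2 and Cd68, and the Apoe probe set on both designs). None was called in CIITA-/- against B6, where 0.0966% of all 9312 probe sets tested were called (limma, adjusted p under 0.05), none in IAb-/- against B6 (0.0107%) and none in CIITA-/- against IAb-/- (0.0215%). At an unadjusted p under 0.05 the members' count was also 0 in each comparison, against 5.86%, 4.31% and 4.54% of all probe sets. A count of 0 among 11 does not stand apart from such shares. The intervals above still allow differences of up to a log2 of 1.27 for Lyz2 and 0.89 for Csf1r relative to B6. The comparisons with B6 share the B6 arrays.

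The largest spread of the bright members was not between groups but between experiments. Set against experiments 2 and 3, the arrays of experiment 1 read 2.40-fold higher for Lyz2, 3.66-fold for Cd68 and 3.43-fold for Csf1r (ratio of geometric means, n = 3 and 6 arrays). Within groups the Cd68 ratio was 3.98 in CIITA-/-, 2.78 in IAb-/- and 4.44 in B6, the Csf1r ratio 3.35 in CIITA-/-, 2.95 in IAb-/- and 4.09 in B6, and the Lyz2 ratio 2.37 in CIITA-/-, 1.94 in IAb-/- and 3.01 in B6. Among the 2876 probe sets of one name on both designs that were above the limit on all 9 arrays, the median ratio was 1.15. Lower ratios than that of Lyz2 were found for 98.9% of these probe sets, and lower ratios than those of Cd68 and Csf1r for 99.8%. No test was made, since the tables were normalized separately, and experiment, array design and scaling cannot be told apart.

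Several other macrophage and monocyte markers lay on the same side, but not all. Cd14, a co-receptor for bacterial lipopolysaccharide, read 2.45-fold higher in experiment 1 and Mpeg1, which encodes perforin-2, 1.93-fold, while Fcgr1, a high-affinity Fc receptor, had a ratio of 0.910. Mrc1, the mannose receptor, read 2565 to 8051 in experiment 1, against -29 to 300 in experiments 2 and 3. Ccr2, the chemokine receptor of inflammatory monocytes, read 4130 to 7308, against 1202 to 1567, and Cd5l, a secreted macrophage protein, 2351 to 4403, against 403 to 725. These 3 were above the limit on all arrays of experiment 1 and on none of the others. Mertk, Marco, Siglec1, Cx3cr1 and Fcgr3 were above it on no array of either table. Within noise, Cx3cr1 was lower in experiment 1, at 312 to 720 against 879 to 1602, as was Fcgr3, at 43 to 560 against 625 to 1677. Among dendritic cell markers Itgax, the integrin CD11c, had a ratio of 1.01, Irf4 of 1.04 and Batf3 of 0.962. Others of that list were lower in experiment 1, with ratios of 0.108 for Ccl22, 0.153 for Ccl17 and 0.628 for Cd86.

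**Figure D4:**
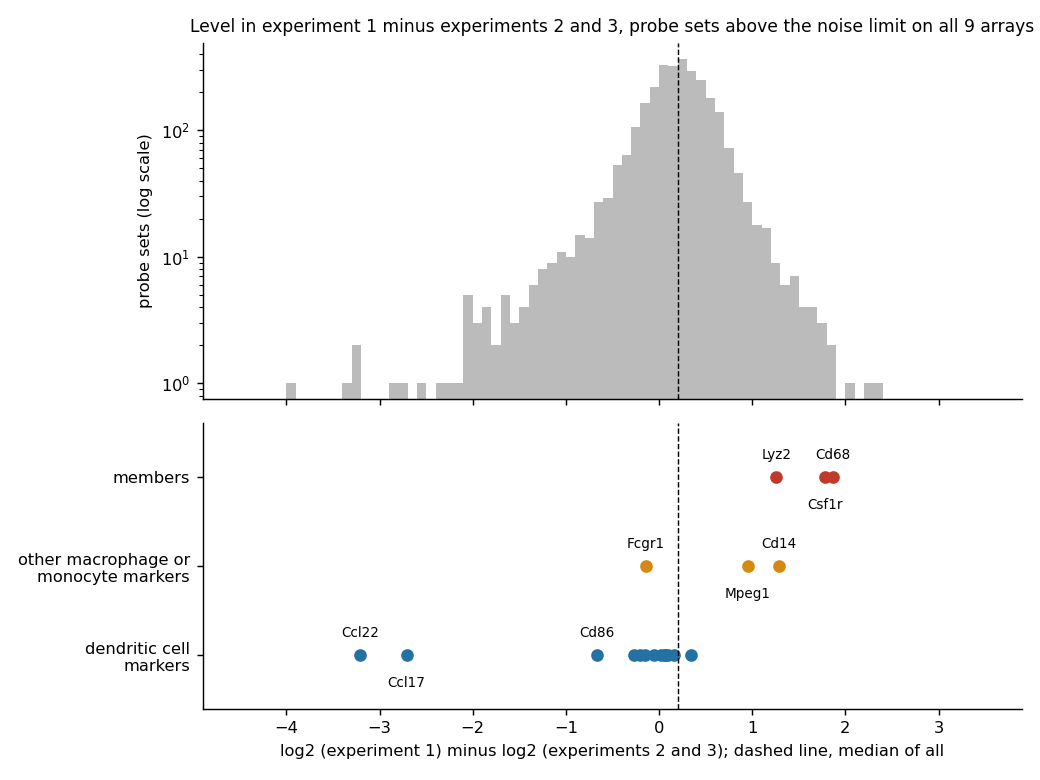
Upper panel, number of probe sets (log scale) by the log2 ratio of experiment 1 to experiments 2 and 3 for 2876 probe sets above the noise limit on all 9 arrays; lower panel, the same ratio for the members and for marker lists, with the dashed line at the median (log2 0.20). Lyz2 (1.26), Csf1r (1.78) and Cd68 (1.87) lie at the upper end, and of the dendritic cell markers all but Ccr7 (0.34) lie below the median.

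Between groups, the summed level of the 13 measured macrophage or monocyte markers other than the members was 23640 to 27309 on CIITA-/- arrays and 25011 to 25494 on IAb-/- arrays of experiments 2 and 3, against 18818 to 19109 on B6 arrays. In experiment 1 the sums were 50234 on the CIITA-/- array and 47398 on the IAb-/- array, against 50800 on the B6 array. Both the sum and Lyz2 were thus higher in the knockout groups in experiments 2 and 3 and not apart in experiment 1. The part of other macrophage markers in the Lyz2 value was not tested. Such a gap was not particular to this list. The fibroblast sums were 10503 to 14682 on CIITA-/- arrays and 9869 to 13025 on IAb-/- arrays, against 7752 to 8053 on B6 arrays. The dendritic cell sums, 483250 to 640640 on IAb-/- arrays and 518194 to 540295 on B6 arrays, overlapped. Of the 13 macrophage or monocyte markers, 9 were above the limit on none of the 6 arrays. Of 11 markers tested 10 had a higher value in CIITA-/- than in B6 and 9 a higher value in IAb-/-, with medians of log2 0.57 and 0.25, beside 0.01 over all probe sets tested, and none was called (limma, lowest adjusted p = 0.78 and 0.755). Only 4 of the 11 were above noise, and over these the medians were 0.44 in CIITA-/- against B6 and 0.47 in IAb-/- against B6. In experiment 1 the medians were 0.06 and -0.09. A share of higher values over all probe sets was not counted. In the fibroblast list 5 of 5 tested genes, and in the B cell list 5 of 6, had a higher value in each comparison with B6. In the dendritic cell list 4 of 17 did in CIITA-/- and 7 of 17 in IAb-/-. Itgam, the integrin CD11b, read 2124 and 3447 on CIITA-/- arrays, against 1341 and 1406 on B6 arrays. This is at least 1.59-fold with the B6 level set at the noise limit (limma, adjusted p = 0.78, and log2 0.17 in experiment 1). On IAb-/- arrays Itgam read 3508 and 2680, at least 1.80-fold with the B6 level set at the noise limit (log2 -0.48 in experiment 1). Fcgr1 read 5285 and 7330 on CIITA-/- arrays and 5211 and 6417 on IAb-/- arrays, against 4133 and 4176 on B6 arrays.

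The receptor axis and the transcription factors of macrophages were measured by 18 of 21 listed genes, of which 16 were tested. None was called in any comparison, and the list medians were log2 0.14 in CIITA-/- against B6 and 0.13 in IAb-/- against B6, beside 0.01 over all probe sets tested. Cebpb, a myeloid transcription factor, read 8237 and 10063 on CIITA-/- arrays and 11905 and 11949 on IAb-/- arrays of experiments 2 and 3, against 8035 and 8609 on B6 arrays (log2 0.52 in IAb-/- against B6, limma adjusted p = 1; 0.05 in experiment 1). Csf2rb, the shared beta chain of the GM-CSF receptor, read 14764 and 21292 on CIITA-/- arrays, which overlapped with B6, and 24509 and 23258 on IAb-/- arrays, against 18756 and 17497 on B6 arrays (log2 0.40 in IAb-/- against B6; 0.11 in experiment 1). Csf1, the ligand of Csf1r, read 10887 and 16307 on CIITA-/- arrays, also overlapping with B6, and 15460 and 16874 on IAb-/- arrays, against 12462 and 15101 on B6 arrays (log2 0.24 in IAb-/- against B6; 0 in experiment 1). Csf3r, the G-CSF receptor, read 4392 and 4982 on CIITA-/- arrays and 2291 and 2394 on IAb-/- arrays, against 3879 and 3753 on B6 arrays. It was thus higher than B6 by value in CIITA-/- (log2 0.29) and lower in IAb-/- (log2 -0.70; limma, adjusted p = 0.655). In experiment 1 the log2 differences of Csf3r were 1.25 in CIITA-/- and 1.62 in IAb-/-, so by value the IAb-/- difference had the opposite sign there. Csf3r was not above the noise limit on all arrays of experiment 1, so these differences rest in part on values within noise.

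Complement genes other than C1q were measured by 17 of 23 listed, with 15 tested and none called (limma, lowest adjusted p over the 3 comparisons 0.569). The medians were log2 0.25 in CIITA-/- against B6, with 13 of 15 higher by value, and 0.07 in IAb-/- against B6, with 9 of 15. Over all probe sets tested the median was 0.01 in both comparisons. Only 7 and 5 of the 15 were above noise, and over these the medians were 0.19 and 0.07. Within experiment 1 the medians of the members above noise were -0.09 and -0.01. Cfp, properdin, which stabilises the alternative pathway convertase, was bright, at 26955 and 23529 on CIITA-/- arrays, against 24616 and 19796 on B6 arrays (log2 0.19). Cfb, factor B of the alternative pathway, read 1809 and 1761 on CIITA-/- arrays and 1038 and 800 on IAb-/- arrays, against 1464 and 1148 on B6 arrays. For CIITA-/- against IAb-/- this is at least 1.05-fold (limma, adjusted p = 0.569), and the probe set is not on the design of experiment 1. Cr1l, a membrane regulator of complement, read 2853 and 3274 on CIITA-/- arrays and 2608 and 3558 on IAb-/- arrays, against 2504 and 2650 on B6 arrays.

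Lipid and apolipoprotein handling genes, the setting in which Apoe acts, were measured by 23 of 27 listed, with 22 tested and none called. The medians were log2 0.15 in CIITA-/- against B6 and 0.02 in IAb-/- against B6, beside 0.01 over all probe sets tested. Of the 22, 16 and 15 were above noise in these comparisons. Lpl, the lipase that frees fatty acids from lipoproteins, was bright, at 78942 and 54567 on CIITA-/- arrays and 58734 and 35004 on IAb-/- arrays, against 53777 and 41366 on B6 arrays (log2 0.48 in CIITA-/- against B6, limma adjusted p = 0.931; 0.34 in experiment 1). Ch25h, which makes 25-hydroxycholesterol, read 5158 and 4363 on CIITA-/- arrays, against 3558 and 2058 on B6 arrays. The log2 difference was 0.81 (limma, adjusted p = 0.847), with 0.15 in experiment 1. On IAb-/- arrays Ch25h read 4394 and 3791 (log2 0.59 against B6, and -0.06 in experiment 1). Npc1, which moves cholesterol out of lysosomes, read 14260 and 14149 on CIITA-/- arrays, against 11088 and 10246 on B6 arrays (log2 0.41, and 0.05 in experiment 1). On IAb-/- arrays Npc1 read 15054 and 13182 (log2 0.40 against B6, and -0.06 in experiment 1). Lrp1, a receptor for Apoe-bearing particles, read 9311 and 7305 on IAb-/- arrays, against 6915 and 4809 on B6 arrays (log2 0.52; 0.01 in experiment 1). Fabp4, a fatty acid binding protein, ran the other way by value, with 2299 and 1403 on CIITA-/- arrays and 2062 and 2098 on IAb-/- arrays, against 2819 and 2528 on B6 arrays. Its log2 differences were -0.57 in CIITA-/- against B6 and -0.36 in IAb-/- against B6 (limma, adjusted p = 0.915 and 1), with -0.80 and -0.19 in experiment 1.

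Lysosomal genes of macrophages, listed because Gpnmb could not be read, were measured by 15 of 19 genes, all tested and none called. Their medians were log2 0.12 in CIITA-/- against B6 and 0.18 in IAb-/- against B6, with 11 and 14 of 15 higher by value. Over all probe sets tested the median was 0.01 in both comparisons. Ctsd, the aspartic protease cathepsin D, read 59118 and 63135 on CIITA-/- arrays and 61758 and 55527 on IAb-/- arrays, against 51396 and 42378 on B6 arrays. Its log2 differences were 0.39 and 0.33 (limma, adjusted p = 0.892 and 1), with 0.25 and 0.45 in experiment 1. Ctsl, the cysteine protease cathepsin L, read 15774 and 13425 on CIITA-/- arrays and 22290 and 21097 on IAb-/- arrays, against 16969 and 16611 on B6 arrays. Its log2 difference was -0.21 in CIITA-/- against B6 and 0.37 in IAb-/- against B6, with 0.47 and 0.15 in experiment 1, and -0.58 in CIITA-/- against IAb-/- (limma, adjusted p = 0.747). Pld3, a lysosomal nuclease, read 5122 and 5914 on CIITA-/- arrays, against 5355 and 6940 on B6 arrays (log2 -0.15; -0.24 in experiment 1). Lgals3, galectin-3, read 86656 and 88946 on CIITA-/- arrays, against 83312 and 80494 on B6 arrays (log2 0.10).

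Over the 6 arrays of experiments 2 and 3, the genes with the pattern most like that of Csf1r, among 3301 probe sets above the limit on all 6, were Atp5d (Pearson r = 0.973), Msl1 (0.971), Zfp703 (0.970), Ltb4r1 (0.967) and Cat (0.965). Ltb4r1 read 10162 and 6401 on CIITA-/- arrays and 10708 and 6759 on IAb-/- arrays, against 8504 and 3967 on B6 arrays. A correlation over 0.9 with Csf1r was reached by 1.39% of the 3301. The averaged C1q profile, which rests on values under the limit, was most like Nrbp1 (r = 0.995), Nhp2 (0.992), Otud4 (0.989), Mtdh (0.988) and Creg1 (0.983), and 1.73% exceeded 0.9. Nrbp1 read 7601 and 13598 on CIITA-/- arrays and 7457 and 11925 on IAb-/- arrays, against 7733 and 8288 on B6 arrays, so its likeness to C1q comes from the knockout arrays of experiment 3. These correlations describe 6 arrays that share scaling and experiment and carry no test.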

How the data were processed

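The authors deposited 1 linear intensity for each probe set on each array. Which algorithm and scaling produced the values is not stated by labels or file headers. Per the labels, sample preparation and hybridisation followed an earlier publication. Gene symbols come from the platform annotation: 10833 of 12488 probe sets have 1 symbol and 396 several in the 6-array table, and 10276 of 12654 have 1 and 363 several in the other. A probe set with more than 1 symbol got no gene name.

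Tests were run on the 6 arrays of experiments 2 and 3. A floor at the 30th percentile of all values (123.5; 93.2 in the 3-array table) replaced anything lower before the log2 step, and 9312 probe sets that exceeded it on 2 or more arrays were fitted in R 4.3.3 with limma 3.58.1 (lmFit, eBayes). The 3 groups shared 1 estimate of the spread, which leaves 3 residual degrees of freedom. P-values were adjusted by Benjamini-Hochberg over all probe sets. Log2 differences on this floored scale understate the change of dim probe sets. The fit was tested on simulated data. Experiment 1 gave values and within-experiment differences only.

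Where 1 group lay under the noise limit, the fold is given against that limit. Lists use the brightest probe set per gene. Of a list, genes were named by the largest log2 difference among those above the limit on every array of at least 1 of the 2 groups and with 1 sign in all experiments measured, at most 4 per comparison. Values of markers given across experiments, Mrc1, Ccr2, Cd5l and others, were chosen after their values were seen. Only part of the genes the rule gives are printed, and the values of the other knockout group are added for some. Csf3r in IAb-/- and Ctsl in CIITA-/-, which change sign between experiments, were added after their values were seen. The members, the lists and the rules were chosen with earlier results of these data known. The experiment number in the titles was taken as a shared block in an alternative fit; same-numbered arrays deviated from their group means with correlations of 0.048, 0.079 and 0.215 across probe sets. RefSeq's promoter table gave windows for 6 of the genes. The number of arrays, 2 per group in the fit, limits the precision.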

Additional observations from a re-analysis of the deposited data

How the results depend on the processing

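No member probe set was called in any comparison under any of the 10 alternatives or with any of the 6 arrays left out, and 1 of the 3 member probe sets above the noise limit on all 9 arrays had a higher value in all 3 experiments in CIITA-/- against B6, also with the floor at the 40th percentile and with quantile normalization. The floor at the 20th percentile was not run, since it lies below 0 and has no log; the 40th percentile and the other settings of the ratio of experiment 1 were added after the data were seen. Over all probe sets, the 9 calls of CIITA-/- against B6 became 5 (floor at the 40th percentile), 3 (floor at the noise limit), 5 (asinh without a floor), 14 (no filter), 4 (filter at the noise limit), 1 (a separate fit per comparison), 0 with the replicate block over 6 arrays and 4 with it over all 9; leaving out arrays gave 0 to 1. The 1 call of IAb-/- against B6 became 0 (floor at the 40th percentile, at the noise limit, asinh, filter at the noise limit, separate fit, and replicate block over 6 or 9 arrays), 3 (quantile normalization) and 5 (no filter), and 0 to 0 with arrays left out. The 2 calls of CIITA-/- against IAb-/- became 1 (40th percentile), 4 (floor or filter at the noise limit), 7 (no filter), 0 (replicate block over 6 arrays, separate fit) and 0 to 1 with arrays left out. The replicate block changed no call of a member. With arrays left out, the log2 difference in CIITA-/- against B6 ran from 0.27 to 0.63 for Lyz2, from -0.16 to 0.28 for Cd68 and from -0.01 to 0.50 for Csf1r. In IAb-/- against B6 it ran from 0.34 to 0.88 for Lyz2, from 0.01 to 0.45 for Cd68 and from -0.03 to 0.48 for Csf1r. For CIITA-/- against IAb-/- the ranges were -0.43 to 0.11 for Lyz2, -0.30 to -0.05 for Cd68 and -0.17 to 0.21 for Csf1r. Where these change sign the cause was not tested. A group left with 1 array was assumed to vary like the others. Adjusted p-values (limma) for these 3 genes lay between 0.485 and 1 under all settings. The log2 ratio of experiment 1 to the other experiments was 1.06 to 1.31 for Lyz2, 1.67 to 2.02 for Cd68 and 1.58 to 1.95 for Csf1r under the added settings. Of the list medians under the alternatives, 556 moved little and 47 moved further; that of the macrophage markers in CIITA-/- against B6 was 0.27 with asinh and with the replicate block over 9 arrays and 0.29 with no filter, and in IAb-/- against B6 it ran from 0.25 to 0.47 with arrays left out. Values under the noise limit cannot resolve C1q, Apoe or, in experiments 2 and 3, Adgre1.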

Other observations

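While the bright probe sets of Lyz2, Cd68 and Csf1r read higher in experiment 1, the chemokines Ccl22 and Ccl17 read lower there. Both chemokines attract Ccr4-bearing T cells. Ccl22 lay between 9606 and 16715 in experiment 1, against 91858 to 151512 in experiments 2 and 3, a ratio of 0.108. Ccl17 lay between 20288 and 26796, against 121797 to 199441, a ratio of 0.153. Cd86, a costimulatory molecule, had a ratio of 0.628 and Ccr7, the receptor that guides dendritic cells to lymph nodes, one of 1.26. Cd40 was below the noise limit on all 3 arrays of experiment 1 and above it on all 6 others. Array design and experiment cannot be told apart in these values, the tables were normalized separately, and the genes were chosen after their values were seen.

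Of the other marker lists, the neutrophil list had Lcn2 and Cxcr2 above the noise limit on all 9 arrays and 9 of its 13 genes on none, Elane, Mpo and S100a8 among them. Lcn2, a siderophore-binding protein that neutrophils and other cells make, read 6575 and 4726 on IAb-/- arrays of experiments 2 and 3 and 2595 and 2955 on CIITA-/- arrays, against 1970 and 1704 on B6 arrays. The log2 difference in IAb-/- against B6 was 1.61 (limma, adjusted p = 0.415), and this probe set is not on the design of experiment 1. Fn1, fibronectin, which macrophages and fibroblasts both make, read 3565 and 6791 on CIITA-/- arrays and 6061 and 4148 on IAb-/- arrays of experiments 2 and 3, against 2272 and 2789 on B6 arrays. Its log2 differences were 0.97 and 0.99 (limma, adjusted p = 0.864 and 1), with 0.87 and 0.57 in experiment 1. The sign was thus the same in all 3 experiments in both comparisons, which share the B6 arrays. A higher value in all 3 experiments was seen for 16.7% of 3576 probe sets in CIITA-/- against B6. In IAb-/- against B6 it was seen for 13.8% of 3590. Of the 8 fibroblast genes measured, 6 were above the limit on none of the 6 arrays. The B cell list had Pax5 above the limit on all arrays and Cd79a and Igll1 on none. Vpreb1, Cd79b and Ms4a1 were above it on some arrays of experiments 2 and 3. Vpreb1 read up to 3135 and Cd79b up to 2457, both on CIITA-/- arrays, and Ms4a1 read 1856 and 1873 on B6 arrays. The erythroid list had Klf1 above it on all and Hba-a1 on none.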
